A study of Rattus norvegicus with 8 samples.

Results

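The genes described here are the rat zinc finger genes whose symbols start with Zfp, Znf, Zbtb, Zscan or Zkscan, leaving out Zfp36, Zfp36l1 and Zfp36l2. They were chosen by symbol and by brightness: a probe had to match a RefSeq transcript of such a gene and to be well above background, by the scanner software's own flag, on 3 or more arrays of at least 1 dose. Of 235 such genes on the array, 120 met this rule, through 138 of 323 probes, among 13474 features (genes or unnamed transcripts) measured in all. By name, 96 of the 120 were Zfp genes, 18 were Zbtb, 2 were Znf, 2 were Zscan and 2 were Zkscan. The brightness flags that chose them are a description only. Of the 115 genes not measured, 78 were well above background on 0 arrays.

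The cells were NR8383, a line of rat alveolar macrophages first obtained by lung lavage from a normal animal. One group of 4 cultures had received zinc oxide (ZnO) at 16 µg/mL for 4 h (ZnO 16), and the other group of 4 had received 4 µg/mL for 4 h (ZnO 4). By the descriptions of the samples, the ZnO 16 cultures had been through 200 passages and the ZnO 4 cultures through 20, and each dose lay on its own slide with its own scan, so dose, passage number, slide and scan cannot be told apart in any difference below. Untreated cells were not analysed here.

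Most of these proteins hold C2H2 zinc fingers, loops folded around a zinc ion by cysteines and histidines, which read DNA in tandem. Many Zfp and Znf proteins carry a KRAB domain that recruits the co-repressor Trim28. Zbtb proteins carry a BTB domain, through which they pair and bind co-repressors such as Ncor1 and Bcor, and Zscan and Zkscan proteins carry a SCAN domain for pairing. The names are not strict: Zfpm1 and Zfpl1 fall among the Zfp genes by their letters alone.

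Levels are log2 processed signals minus the 75th percentile of the same array, and a difference is ZnO 16 minus ZnO 4 on that scale. That percentile, a log2 signal, was 7.24 to 8.57 on the ZnO 16 arrays and 8.29 to 9.01 on the ZnO 4 arrays, and 31.5% to 39.3% of probes were well above background. Of 14 macrophage markers 12 were measured, among them Lyz2, Tyrobp, Laptm5 and Cd68, while neither Adgre1 nor Marco was bright on an array. The summed linear level of the macrophage markers was 425 to 547 in ZnO 16 cells and 422 to 500 in ZnO 4 cells, with 2 markers higher and 2 lower; Cd68 was 3.26 ± 0.32 in ZnO 16 cells and 5.00 ± 0.13 in ZnO 4 cells (SD, n = 4 each). None of 8 epithelial markers was measured, and 1 of 6 fibroblast, 1 of 6 lymphocyte and 2 of 4 endothelial markers were. The summed level of the endothelial pair, Pecam1 and Cdh5, was 0.573 to 0.752 in ZnO 16 cells and 1.26 to 1.46 in ZnO 4 cells; its part in the results was not tested. In whole cultures, fewer cells expressing a gene and less of its RNA per cell cannot be told apart. On ZnO 4 replicate 4, a low-signal area of 2437 spots took in the probes of Zbtb21, Zfp148, Zfp207 and Zscan21.

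Relative to each array's 75th percentile, more zinc finger genes were higher than lower in ZnO 16 cells, a direction that turned round without scaling between arrays and with spike-in scaling. Of the 101 genes well above background on 3 or more arrays at both doses, 36 were higher and 7 lower (adjusted p under 0.05), against 20.6% higher and 19.4% lower of all 11526 features bright at both doses. Among the 7155 of those features that have a gene symbol, the background was 24.1% higher and 15.1% lower. The median difference was 0.32 over the 101 genes and 0.04 over all features bright at both doses. With no scaling between arrays, where the median difference of all features was -0.75, 3 of the 101 genes were higher and 17 lower. Of all 120 genes 82 then had a negative difference, and 7 were called higher and 20 lower. Over all 13474 features 1.71% were then called higher and 32.8% lower. With spike-in scaling the counts were again 3 and 17 of the 101 genes and 7 and 20 of the 120, with 80 of 120 negative. The shares over all features were then 1.90% higher and 32.7% lower. The doses did not overlap for 29 genes that were higher and 8 that were lower, against 19.4% and 19.2% of all features bright at both doses.

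Taken over all 120 genes, 49 were higher and 10 lower, beside a background of 19.8% higher and 21.8% lower over 13474 features. This count includes 14 genes that passed the brightness rule only at ZnO 16, of which 13 were higher, and 5 that passed only at ZnO 4, of which 3 were lower. Over all features of the same kinds, 52.6% of 565 bright only at ZnO 16 were higher and 51.3% of 1383 bright only at ZnO 4 were lower. Since the rule itself favours genes that are high at the dose where they are bright, nothing is read from these shares. The per-array median level of the 120 genes was -1.73, -1.74, -1.65 and -1.95 on the ZnO 16 arrays and -2.10, -2.16, -2.23 and -1.90 on the ZnO 4 arrays. The medians of the doses overlapped, since ZnO 4 replicate 4 lay above ZnO 16 replicate 4. At the edge of the rule, the 14 genes with exactly 3 bright arrays at their better dose had mean levels of -5.57 to -2.71 at ZnO 16 and -6.07 to -3.40 at ZnO 4, and the 10 genes with 2 had -6.31 to -3.92 at ZnO 16 and -6.04 to -3.49 at ZnO 4.

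The name classes differed in the spread of their differences, which was described and not tested. Zfp genes bright at both doses numbered 82, of which 29 were higher and 3 lower, with a median difference of 0.37, an SD of 0.61 and a range of -0.79 to 2.76. Zbtb genes bright at both doses numbered 16, of which 6 were higher and 4 lower, with a median of -0.09, an SD of 1.30 and a range of -1.35 to 3.58. The 6 include Zbtb7a, counted by its brightest probe although its probes were called in opposite directions. All 4 Zbtb genes called lower had differences of -1.16 or below, whereas none of the 3 Zfp genes called lower did. The 2 Znf genes were higher, the 2 Zscan genes went in opposite directions, and neither Zkscan gene passed the threshold. Both Znf genes passed the brightness rule only at ZnO 16, and Zscan10 only at ZnO 4. Nothing is read from the directions of these genes. Split by level, the brightest 33 genes had 17 higher and 1 lower, the middle 34 had 13 higher and 3 lower, and the dimmest 34 had 6 higher and 3 lower. Over all features in the same level ranges the shares called higher were 25.7%, 19.7% and 13.5%, and the shares called lower 20.4%, 21.5% and 13.2%.

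**Figure D1:**
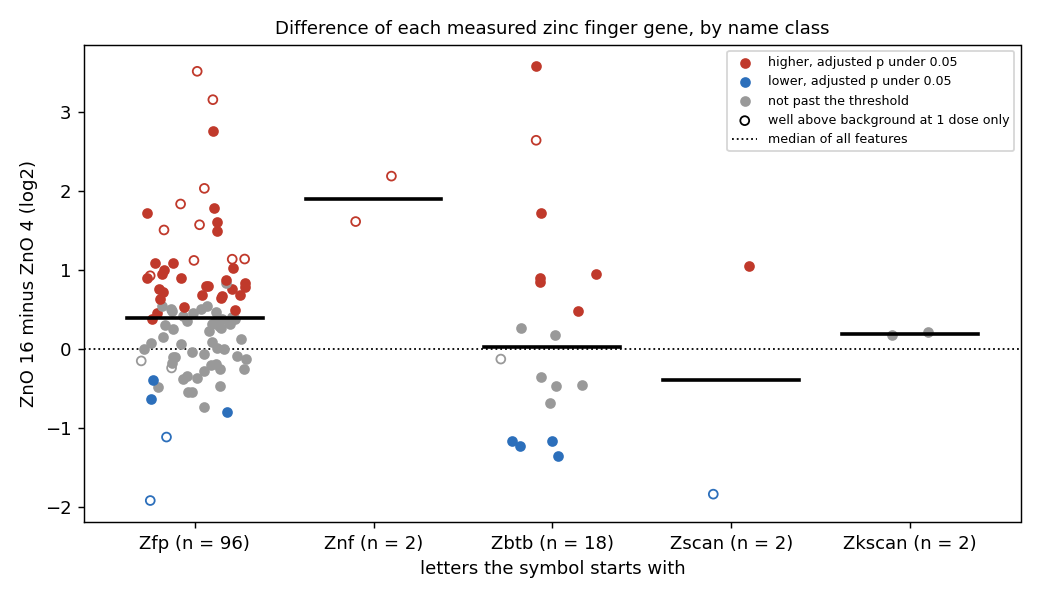
Difference (ZnO 16 minus ZnO 4, log2, vertical axis) of each of the 120 genes, grouped by the letters of the symbol. Each point is 1 gene, open points were bright at 1 dose only, bars are class medians and the dotted line is the median of all features. Zfp genes centre on 0.40 and Zbtb genes on 0.03, with Zbtb genes running from -1.35 to 3.58.

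**Figure D2:**
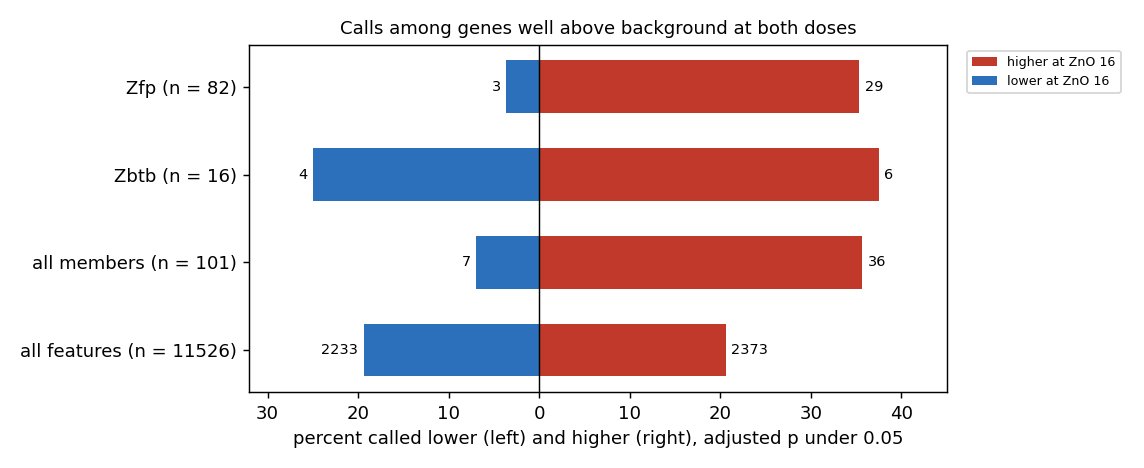
Percent of genes bright at both doses that were called lower (left) and higher (right) in ZnO 16 cells at an adjusted p under 0.05, with the number called beside each bar. The 82 Zfp genes had 29 higher and 3 lower, and the 16 Zbtb genes had 6 higher and 4 lower. The 6 include Zbtb7a, whose probes disagreed. Over all 11526 features bright at both doses 20.6% were higher and 19.4% lower.

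RefSeq promoter windows of the GRCr8 assembly, from 250 bases before to 50 after the start, were found for 99 of the 120 genes. The core of the metal response element, the zinc-dependent site of Mtf1, was searched as TGCACNC or TGCGCNC on both strands. It was in 28 of the 99 windows (28.3%), against 36.3% of 6699 tested genes and 26.3% of all 27457 windows. It was in 11 of 40 windows of genes that were higher, 2 of 8 of genes that were lower and 15 of 51 of the rest. The heat shock motif GAANNTTC was in 6.06% of the 99 windows, and TGACGTCA and TGATGCAA were in 2 windows each. The median number of CG dinucleotides was 20.5 in windows of genes that were higher and 7.50 in the 8 of genes that were lower, against 21 in tested genes. A match is a description of the letters and not a site in use. The windows given next, with the core in capitals on either strand, are of 3 genes that were higher (Zfp668, Zfp513 and Znf57l, the last with 2 cores) and both genes with a core that were lower (Zbtb4 and Zbtb14). Each window is given in the direction of the gene, and no searched motifs overlap in them.
Zfp668 (chr1:191914862-191915161, minus strand): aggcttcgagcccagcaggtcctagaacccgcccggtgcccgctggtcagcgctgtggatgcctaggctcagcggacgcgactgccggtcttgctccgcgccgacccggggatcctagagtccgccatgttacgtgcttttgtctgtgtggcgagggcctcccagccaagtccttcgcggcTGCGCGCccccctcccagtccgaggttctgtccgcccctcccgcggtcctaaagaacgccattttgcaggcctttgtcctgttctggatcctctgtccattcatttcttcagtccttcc
Zfp513 (chr6:30893903-30894202, plus strand): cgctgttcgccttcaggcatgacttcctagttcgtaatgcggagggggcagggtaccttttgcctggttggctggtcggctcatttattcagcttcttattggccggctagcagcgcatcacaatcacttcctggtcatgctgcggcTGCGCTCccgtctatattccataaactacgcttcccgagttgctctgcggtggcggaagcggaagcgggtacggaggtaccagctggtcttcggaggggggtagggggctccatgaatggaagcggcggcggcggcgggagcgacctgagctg
Znf57l (chr7:8710741-8711040, minus strand): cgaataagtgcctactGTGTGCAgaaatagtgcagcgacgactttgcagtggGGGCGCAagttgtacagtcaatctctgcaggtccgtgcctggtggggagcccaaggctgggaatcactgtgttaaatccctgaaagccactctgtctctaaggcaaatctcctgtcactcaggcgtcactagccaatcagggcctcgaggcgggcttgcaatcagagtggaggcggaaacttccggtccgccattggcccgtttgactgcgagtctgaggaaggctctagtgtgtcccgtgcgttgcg
Zbtb4 (chr10:54984036-54984335, plus strand): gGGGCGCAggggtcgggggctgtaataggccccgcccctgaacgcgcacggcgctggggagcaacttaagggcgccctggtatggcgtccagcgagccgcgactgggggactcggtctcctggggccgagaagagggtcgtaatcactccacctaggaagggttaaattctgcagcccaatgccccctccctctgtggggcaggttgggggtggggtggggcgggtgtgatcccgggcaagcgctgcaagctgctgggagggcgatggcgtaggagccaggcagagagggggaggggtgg
Zbtb14 (chr9:116779850-116780149, plus strand): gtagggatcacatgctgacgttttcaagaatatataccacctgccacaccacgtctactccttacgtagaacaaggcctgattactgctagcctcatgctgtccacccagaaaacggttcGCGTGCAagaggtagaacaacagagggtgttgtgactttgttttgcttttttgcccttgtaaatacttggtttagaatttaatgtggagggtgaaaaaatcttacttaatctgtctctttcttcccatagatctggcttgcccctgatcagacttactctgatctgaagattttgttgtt

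In the Zbtb class the largest difference was that of Zbtb21, whose human counterpart is a BTB repressor that binds the product of ZBTB14. Its level was 2.05, 2.29, 2.27 and 1.87 in ZnO 16 cells and -1.05, -0.85, -1.14 and -2.79 in ZnO 4 cells. All ZnO 16 arrays lay above all ZnO 4 arrays, and the lowest value was from the array with the low-signal area. The difference was 3.58 (SE 0.36, adjusted p = 4.14e-05), and 3.13 with that area masked. Zbtb14, the GC-binding repressor of Myc in mouse, was -2.36, -3.58, -2.94 and -2.45 in ZnO 16 cells and -1.46, -2.18, -1.39 and -1.62 in ZnO 4 cells. The doses were separate, though by a small gap, and the difference was -1.17 (SE 0.29, adjusted p = 0.00958).

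Zbtb43, another BTB gene, was -0.39, -1.09, -1.06 and -0.59 in ZnO 16 cells and -2.59, -2.71, -2.35 and -2.38 in ZnO 4 cells, with a difference of 1.73 (SE 0.20, adjusted p = 9.34e-05). Its second probe gave 2.00, in the same direction. Zbtb17, the Myc partner Miz-1, was higher by 0.95 (SE 0.17, adjusted p = 0.00162), at 0.93 ± 0.16 in ZnO 16 cells and -0.02 ± 0.31 in ZnO 4 cells (SD, n = 4 each). Zbtb7b, the ThPOK factor of CD4 T cell choice, was higher by 0.90 (SE 0.17, adjusted p = 0.00205), at -1.67 ± 0.20 in ZnO 16 cells and -2.58 ± 0.11 in ZnO 4 cells. The doses did not overlap for either gene. Without scaling between arrays the fitted differences were 0.19 for Zbtb17 (adjusted p = 0.698) and 0.15 for Zbtb7b (adjusted p = 0.784). The median over all features was then -0.75. Zbtb48, a telomere-binding protein in human cells, was also higher, by 0.84 (SE 0.17, adjusted p = 0.00311), outside the rule for names and chosen after its value was seen to complete the class.

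Zbtb2, described in human cells as a repressor in the p53 pathway, passed the brightness rule only at ZnO 16. It was -3.23, -3.72, -3.41 and -3.36 in ZnO 16 cells and not well above background on any ZnO 4 array, which makes it at least 1.82-fold higher. Such a bound is the mean level at ZnO 16 over a floor for ZnO 4, or the reverse for a fall: on each array the floor is its lowest bright signal, or the probe's own signal where that is higher.

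Zbtb7a, the repressor LRF of blood cell lineages, had probes that disagreed. The probe with the stronger signal was 2.44, 2.81, 2.97 and 2.69 in ZnO 16 cells and 2.19, 2.17, 2.29 and 2.34 in ZnO 4 cells, higher by 0.48 (SE 0.13, adjusted p = 0.0148). The other probe averaged -2.11 ± 0.19 in ZnO 16 cells and -1.26 ± 0.27 in ZnO 4 cells (SD, n = 4 each), a difference of -0.84 (adjusted p = 0.00465 when all probes were fitted singly). No direction is given for the gene, although the counts of genes that were higher include it by its probe with the stronger signal.

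The falls in the Zbtb class were close to each other in size. Zbtb4, a reader of methylated CpG from the Kaiso group, was -2.52, -3.22, -3.07 and -3.09 in ZnO 16 cells and -1.54, -1.98, -1.55 and -1.43 in ZnO 4 cells. The doses were separate and the difference was -1.35 (SE 0.21, adjusted p = 0.000758), but with normexp, run on median spot and background signals with an offset of 50, the fitted difference was -0.27 (adjusted p = 0.170). The median over all features was then 0.15. Of the other Kaiso-group genes, Zbtb38, bright on 3 arrays at ZnO 16 and 2 at ZnO 4, averaged -4.16 ± 0.47 in ZnO 16 cells and -4.03 ± 0.29 in ZnO 4 cells (SD, n = 4 each), and Zbtb33 was not measured. Zbtb5, reported as a repressor of the p21 gene in human cells, was -1.51, -2.02, -1.80 and -1.82 in ZnO 16 cells and -0.48, -0.75, -0.58 and -0.43 in ZnO 4 cells, a difference of -1.23 (SE 0.16, adjusted p = 0.000196). Zbtb9 was -1.80, -1.96, -1.69 and -1.99 in ZnO 16 cells and -0.71, -0.68, -0.81 and -0.59 in ZnO 4 cells, a difference of -1.16 (SE 0.14, adjusted p = 0.000140). Its 3 probes gave -1.16, -1.53 and -1.09. For both Zbtb5 and Zbtb9 every ZnO 16 array was below every ZnO 4 array.

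The other 6 Zbtb genes bright at both doses did not pass the threshold, with differences from -0.69 for Zbtb45 (SE 0.31, adjusted p = 0.0978) to 0.27 for Zbtb44 (SE 0.22, adjusted p = 0.358). Zbtb16, Zbtb18, Zbtb20 and Zbtb32, BTB factors known from lymphocytes, blood cells or brain, were on the array and well above background on at most 1 array.

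**Figure D3:**
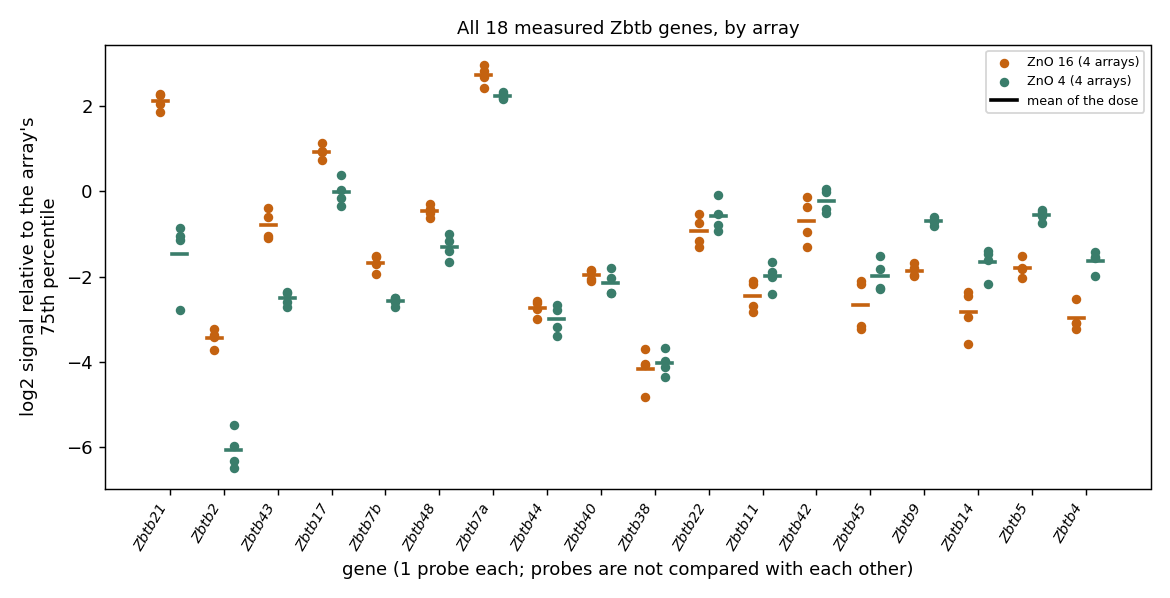
Level of each of the 18 measured Zbtb genes on each array (log2 signal relative to the array's 75th percentile, vertical axis), ordered by difference, with ZnO 16 to the left of ZnO 4. Points are arrays and bars are means of 4 arrays; Zbtb21 at the left differs by 3.58 and Zbtb4 at the right by -1.35.

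Among the Zfp genes bright at both doses, Zfp394 had the largest difference. Its human counterpart has been described as a repressor in MAP kinase signalling. It was -0.33, 0.01, -0.35 and -0.13 in ZnO 16 cells and -3.39, -2.68, -2.92 and -2.83 in ZnO 4 cells. Every ZnO 16 array was far above every ZnO 4 array, and the difference was 2.76 (SE 0.19, adjusted p = 3.08e-06). Zfp668, whose human counterpart takes part in the DNA damage response, was 0.38, 0.76, 0.87 and 0.26 in ZnO 16 cells and -1.40, -1.33, -1.57 and -0.57 in ZnO 4 cells. Its doses were separate and its difference was 1.79 (SE 0.23, adjusted p = 0.000214). Zfp148, the GC-box binding protein ZBP-89, was -1.38, -2.00, -1.70 and -1.25 in ZnO 16 cells and -2.61, -2.79, -3.35 and -4.44 in ZnO 4 cells. Its lowest value came from the low-signal area, and the difference was 1.72 (SE 0.37, adjusted p = 0.00465), or 1.34 with that area masked.

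Zfp513, which acts in photoreceptor development in zebrafish and human, was -0.13, 0.06, 0.05 and -0.03 in ZnO 16 cells and -1.68, -1.57, -1.90 and -1.31 in ZnO 4 cells, a difference of 1.60 (SE 0.15, adjusted p = 2.63e-05). Zfp868 was -0.43, -0.93, -1.15 and -0.54 in ZnO 16 cells and -2.00, -2.55, -2.54 and -1.94 in ZnO 4 cells, a difference of 1.50 (SE 0.22, adjusted p = 0.000523). The doses of both were separate. Zfp503, a repressor known from embryonic patterning, was -1.55, -0.85, -1.83 and -2.69 in ZnO 16 cells and -2.82, -2.93, -2.56 and -2.98 in ZnO 4 cells. The doses overlapped, since ZnO 16 replicate 4 was below ZnO 4 replicate 3. Its difference was 1.09 (SE 0.33, adjusted p = 0.0238), with adjusted p = 0.0522 without ZnO 4 replicate 1, 0.0555 without ZnO 4 replicate 2 and 0.0555 without ZnO 16 replicate 1.

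The 3 Zfp falls were smaller. Zfp512b was -0.22, -0.33, -0.02 and -0.56 in ZnO 16 cells and 0.44, 0.38, 0.35 and 0.89 in ZnO 4 cells, a difference of -0.79 (SE 0.17, adjusted p = 0.00392) with separate doses. Zfp592, which in human cells joins a complex with ZMYND8, differed by -0.63 (SE 0.23, adjusted p = 0.0483), at -3.08 ± 0.34 in ZnO 16 cells and -2.44 ± 0.26 in ZnO 4 cells (SD, n = 4 each). Its call was lost on leaving out each array but ZnO 16 replicates 1 and 3, with adjusted p up to 0.131. Zfp637 differed by -0.39 (SE 0.13, adjusted p = 0.0292), at -0.85 ± 0.05 in ZnO 16 cells and -0.46 ± 0.13 in ZnO 4 cells. Leaving out ZnO 4 replicate 1 gave adjusted p = 0.0820, ZnO 4 replicate 2 gave 0.0860 and ZnO 16 replicate 3 gave 0.0656. With normexp the fitted differences were 0.044 for Zfp592 (adjusted p = 0.860) and -0.0055 for Zfp637 (adjusted p = 0.977).

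**Figure D4:**
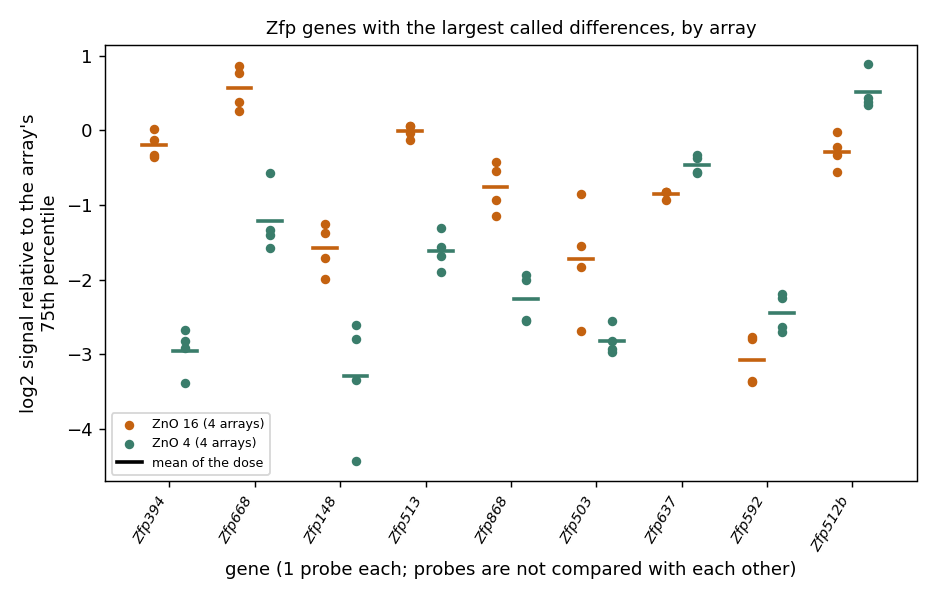
Level on each array of the 9 Zfp genes with the largest called differences among those bright at both doses (log2 signal relative to the array's 75th percentile, vertical axis), with ZnO 16 to the left of ZnO 4. Points are arrays and bars are means of 4 arrays; Zfp394 differs most, by 2.76, and Zfp503 overlaps between doses.

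Zfp385a and Zfp524 had, with Zbtb7a, the strongest mean signals among the 120 genes. Zfp385a, an RNA-binding p53 target in mouse, was 2.53, 3.38, 3.36 and 2.11 in ZnO 16 cells and 1.95, 2.15, 1.91 and 2.33 in ZnO 4 cells. Its high values came from ZnO 16 replicates 2 and 3, whose 75th percentiles of 7.24 and 7.57 were the lowest of the 8 arrays; the part of that in the result was not tested. The difference was 0.76 (SE 0.27, adjusted p = 0.0419), and any of 5 arrays, ZnO 4 replicates 1, 2 and 3 and ZnO 16 replicates 2 and 3, ended the call when left out (adjusted p up to 0.113). Zfp524 was 1.78, 2.38, 2.47 and 1.45 in ZnO 16 cells and 2.25, 2.37, 2.23 and 2.27 in ZnO 4 cells. Its doses overlapped, and its difference was -0.26 (SE 0.21, adjusted p = 0.344). With normexp the fitted difference was -0.47 (adjusted p = 0.0374). Without scaling between arrays it was -1.01 (adjusted p = 0.0236), where the median over all features was -0.75. With spike-in scaling it was -0.95 (adjusted p = 0.0177), where that median was -0.69.

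Among well-known Zfp genes, Zfp622 passed the threshold, and Zfp91, Zfp281 and Zfpm1 did not. Zfp622, whose yeast relative acts in ribosome assembly, was 0.09, -0.15, -0.13 and -0.04 in ZnO 16 cells and -0.74, -0.52, -0.60 and -0.48 in ZnO 4 cells, higher by 0.53 (SE 0.13, adjusted p = 0.00783), while with normexp the fitted difference was 0.28 (adjusted p = 0.112). Zfp91, a ubiquitin ligase of the non-canonical NF-κB pathway, differed by 0.36 (SE 0.21, adjusted p = 0.202). Zfp281, a regulator of pluripotent cells, differed by 0.51 (SE 0.26, adjusted p = 0.135), while with normexp the fitted difference was 0.53 (adjusted p = 0.0340). Zfpm1, the GATA cofactor FOG1, differed by 0.45 (SE 0.29, adjusted p = 0.231). The doses of these last 3 overlapped. Zfp292 was on the array and not measured.

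Zfp genes bright on 3 or more arrays at 1 dose and on none at the other are given by their bounds, with no test. Zfp142 was -1.90, -1.46, -1.34 and -2.00 in ZnO 16 cells and not well above background on any ZnO 4 array, at least 6.13-fold higher. Zfp475 was -2.87, -3.15, -2.44 and -3.40 in ZnO 16 cells, at least 2.50-fold higher. Zfp213 was -4.94, -3.43, -3.37 and -3.21 in ZnO 16 cells, at least 1.47-fold higher, with replicate 1 apart from the others. On the other side, Zfp217, an oncogene product that binds CtBP co-repressors, was -4.12, -3.65, -3.70 and -3.14 in ZnO 4 cells and not well above background on any ZnO 16 array, at least 1.38-fold lower at ZnO 16. Zfp74 was at least 1.14-fold lower. The bounds for Zfp213, Zfp217 and Zfp74 are small beside the spread of their arrays. With normexp the fitted differences were 0.029 for Zfp217 and 0.061 for Zfp74, where the median over all features was 0.15. Zfp142, Zfp475 and Zfp213 were then higher by 1.37, 0.93 and 0.53 relative to all features.

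Both Znf genes were brighter at ZnO 16. Znf57l was -2.06, -2.59, -2.05 and -2.02 in ZnO 16 cells and -4.33, -4.59, -4.51 and -4.04 in ZnO 4 cells, where 2 arrays were well above background. Znf408, tied to retinal vessels in human, was -2.71, -2.87, -2.94 and -3.12 in ZnO 16 cells and -4.08, -4.49, -4.66 and -4.86 in ZnO 4 cells, where 1 array was. Both passed the brightness rule through ZnO 16 alone, so their values are a description. The second Znf408 probe averaged -3.87 ± 0.47 in ZnO 16 cells and -4.15 ± 0.51 in ZnO 4 cells (SD, n = 4 each).

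Of the Zscan genes, Zscan21 ran between 0.96 and 1.50 over the 4 arrays of ZnO 16 cells and was 0.45, 0.52, 0.53 and -1.10 in ZnO 4 cells. Its lowest value came from the low-signal area. Its difference was 1.05 (SE 0.33, adjusted p = 0.0292), and 0.64 (SE 0.16, adjusted p = 0.00789) with that area masked. Leaving out ZnO 16 replicate 1 gave adjusted p = 0.0544, ZnO 16 replicate 3 gave 0.0506 and ZnO 16 replicate 4 gave 0.0651. Zscan10, a factor of mouse embryonic stem cells, was not well above background on any ZnO 16 array. It was -4.49, -5.69, -3.92 and -5.49 in ZnO 16 cells and -3.87, -2.18, -4.16 and -2.02 in ZnO 4 cells. The doses overlapped, since ZnO 16 replicate 3 was above ZnO 4 replicate 3. By the bound on its means Zscan10 was at least 2.06-fold lower at ZnO 16, beside an SD of 1.11 over its ZnO 4 arrays. With normexp its fitted difference was -0.064. Its ZnO 4 arrays fell into a higher and a lower pair.

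Of the Zkscan genes, Zkscan3, a repressor of autophagy genes in human cells, was -1.09, -1.20, -1.26 and -0.93 in ZnO 16 cells and -1.50, -1.29, -1.21 and -1.32 in ZnO 4 cells, a difference of 0.21 (SE 0.14, adjusted p = 0.259). Zkscan5 differed by 0.18 (SE 0.23, adjusted p = 0.563). The doses of both overlapped. A second Zkscan3 probe, bright on 2 of 4 arrays at ZnO 16, gave -1.20 and was called lower when all probes were fitted singly. That probe passed the brightness rule through ZnO 4 alone, so its value is a description.

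Several members were measured by more than 1 probe or lie beside each other. For 17 genes with 35 probes in all, the signs of the difference were the same in 12 and opposite in 5, which were Zbtb7a, Zfp41, Zfp496, Zfp652 and Zkscan3. Only Zbtb7a had probes called in opposite directions. Also 17 genes, 4 of them among those with several probes, share a name stem with another gene (Zfp709, Zfp707 and Zfp91 among them). Their sequences were not compared. Cross-hybridisation of their probes was not tested. By limma, 7 of these 17 were higher and 0 lower, against 19.8% higher and 21.8% lower over all features. Of the 7, Zbtb2 and Zfp418 passed the brightness rule only at ZnO 16. In the RefSeq gene order, 22 genes lay in 9 runs with at most 1 protein-coding gene between neighbours. Of the 22, 10 were higher and 1 lower, against the same background. Zfp418, Zfp213 and Zscan10 among them were bright at 1 dose only. Over all 120 genes 40.8% were higher and 8.33% lower, so neither set is read as different from the other zinc finger genes. In the longest run, Zfp956, Zfp777 and Zfp746 were higher, by 0.38, 0.76 and 0.90, while Zfp282 differed by 0.38 (adjusted p = 0.217). For Zfp746 the spot on ZnO 16 replicate 4 was left out as an outlier, so its difference rests on 3 against 4 arrays. No run had every member higher, and in 1 run the neighbours were Zfp213, bright only at ZnO 16, and Zscan10, bright only at ZnO 4.

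Among the proteins that these repressors work through, calls went in both directions. In a list of the KRAB co-repressor complex and heterochromatin, 9 of 19 genes were measured, 1 higher and 2 lower, with a median difference of -0.23, against 19.8% higher, 21.8% lower and a median of 0.01 over all features. Trim28, the KRAB co-repressor, was 3.73 ± 0.44 in ZnO 16 cells and 2.71 ± 0.31 in ZnO 4 cells (SD, n = 4 each), a difference of 1.02 (SE 0.22, adjusted p = 0.00509). Without scaling between arrays its fitted difference was 0.27 (adjusted p = 0.510), where the median over all features was -0.75. Cbx5, the heterochromatin protein HP1α, was lower, with a difference of -0.98 (SE 0.19, adjusted p = 0.00282). Mta1, of the NuRD complex, differed by -0.38 (SE 0.14, adjusted p = 0.0469), and of the 8 arrays only ZnO 4 replicate 1 and ZnO 16 replicate 1 could be left out with the call kept.

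Of the partners of BTB proteins, the co-repressor Ncor1 was bright on 2 of 4 arrays at ZnO 16 and so passed the rule through ZnO 4 alone; it averaged -3.87 ± 0.51 in ZnO 16 cells and -2.83 ± 0.36 in ZnO 4 cells (SD, n = 4 each). Rbx1, of the CUL3 ubiquitin ligase, differed by 0.44 (SE 0.13, adjusted p = 0.0222). Leaving out ZnO 4 replicate 1, ZnO 4 replicate 3 or ZnO 16 replicate 2 ended that call (adjusted p up to 0.0654), and with normexp the fitted difference was 0.18 (adjusted p = 0.285).

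BTB zinc finger genes with other symbols had 6 of 7 measured, 1 higher and 3 lower, with a median of -0.39. Over all features 19.8% were higher and 21.8% lower, with a median of 0.01. Hic2 was higher by 0.81 (SE 0.17, adjusted p = 0.00334). Bcl6, a repressor of inflammatory genes in macrophages, differed by -0.52 (SE 0.12, adjusted p = 0.00679), at -0.50 ± 0.12 in ZnO 16 cells and 0.03 ± 0.06 in ZnO 4 cells. With median scaling its fitted difference was -0.36 (adjusted p = 0.165), where the median over all features was 0.17. Mynn, counted among the 3, was not well above background on any ZnO 16 array, at least 1.40-fold lower. With normexp the fitted difference of Mynn was -0.028. Other C2H2 regulators had 9 of 24 measured, 2 higher and 3 lower, with a median of -0.31, against the same shares over all features. Maz differed by 1.07 (SE 0.28, adjusted p = 0.0110) and Hivep3 by -1.01 (SE 0.20, adjusted p = 0.00266). Yy1, counted among the 3, was bright on 2 arrays at ZnO 16 and 3 at ZnO 4; it averaged -4.16 ± 0.28 in ZnO 16 cells and -3.18 ± 0.48 in ZnO 4 cells, and with normexp its fitted difference was 0.035.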

How the data were processed

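RNA of 8 cultures was measured on 1-colour Agilent arrays (Cy3). Each deposited file is scanner output, and the submitters' processing notes name Agilent Feature Extraction 11.0.1.1; its processed signal is a linear intensity, background-subtracted and detrended per the file headers, with no scaling between arrays. The deposited 0 or 1 flags mark bright and outlying spots. The design text calls the replicates biological.

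Log2 signals were set relative to the 75th percentile of an array's non-control spots. Flagged spots were dropped, spots of a probe averaged, and probes kept when well above background on 3 or more arrays of at least 1 dose. The brightest probe stood for its gene. The files hold accessions, and 21102 of 45598 probes (46.3%) matched a symbol in a RefSeq table of GRCr8, used for names only because the headers give another build. limma 3.58.1 (R 4.3.3; lmFit, eBayes with an intensity trend, two-sided) was fitted over 13474 features without covariates, with Benjamini-Hochberg adjusted p-values called under 0.05, and tested on simulated data. The precision is limited by 4 arrays per dose and, for dim probes, by background. No spot was saturated.

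The genes, classes and lists were chosen with earlier results of these data known. The genes named are the 8 largest called rises and falls bright at both doses (7 falls existed), up to 4 bounds in each direction, the 3 strongest mean signals, all Zscan and Zkscan genes, the 3 largest Zbtb and Znf differences in each direction, textbook members, genes with probes called in opposite directions, and the 3 largest called differences of each list. The result for 1 list gene, and the counts of its list, are not reported here. Same-numbered arrays did not pair: the correlations of their deviations from the dose means were 0.25, 0.40, -0.22 and -0.03. Alternatives were scaling, background correction, filters, probe choice, flagged spots, low-signal areas, a floor, a replicate block and leaving out each array.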

Additional observations from a re-analysis of the deposited data

Results flagged for a closer look

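Dixon's test at the 95% level was run on 96 sets of 4 arrays for the named genes, and chance alone gives about 1 in 20. It marked 6 arrays as far from the other 3 of their dose. Zbtb21 was -2.79 on ZnO 4 replicate 4, against -1.14 to -0.85 on the others, and Zscan21 was -1.10 on the same array, against 0.45 to 0.53; both probes lie in that array's low-signal area. Maz was -1.71 on ZnO 4 replicate 4, against -2.41 to -2.29. Zfp213 was -4.94 on ZnO 16 replicate 1, against -3.43 to -3.21. Znf57l was -2.59 on ZnO 16 replicate 2, against -2.06 to -2.02. Zfp637 was -0.93 on ZnO 16 replicate 3, against -0.83 to -0.82, a gap that is large only beside the narrow spread of the other 3.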

How the results depend on the processing

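The choice of scaling moved the counts most. Without scaling between arrays the members higher at ZnO 16 numbered 7 and the members lower at ZnO 16 numbered 20, with 3 and 17 of the members at both doses, and the median difference of members was -0.37. With spike-in scaling the counts were again 7, 20, 3 and 17, and the median was -0.31. Under each of these settings 18 of the 48 named genes lost their calls. Among them were Zbtb17, Zbtb43, Zbtb7b, Zfp148, Zfp513, Zfp868, Trim28, Hic2 and Maz, while Zbtb21, Zfp394 and Zfp668 were still called higher. With median scaling the median was 0.55, and 7 named genes lost their calls. They were Zfp592, Zfp637, Zfp74, Mta1, Ncor1, Bcl6 and Yy1, all lower in the main fit. Zbtb4, Zbtb5, Zbtb9, Zfp512b, Cbx5 and Hivep3 were still called lower. Over all features the calls were 230 higher and 4416 lower without scaling, 256 and 4408 with spike-in scaling, 3409 and 1979 with median scaling and 2784 and 1996 with normexp, against 2672 and 2943. The median of members minus the median of all features was 0.37. Median scaling, spike-in scaling and no scaling move all genes of an array by the same amount. That value is therefore nearly fixed under them, and its agreement there tests nothing. With quantile normalization it was 0.35. It was 0.20 with normexp and 0.21 with no filter on dim probes. The members lower numbered 5 with normexp and 6 when all 8 arrays had to be bright; the cause of the first was not tested, and the second tests fewer genes. Zbtb7a reversed, to -0.044 relative to all features with normexp (0.11 as fitted) and to -0.18 with the mean over its probes.

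Leaving out 1 array at a time gave 35 to 48 members higher and 6 to 11 lower, with the lowest, 6, without ZnO 4 replicate 2. At both doses it gave 25 to 36 higher and 5 to 9 lower. The median difference was 0.33 to 0.43, and relative to all features 0.31 to 0.43. Of the 49 higher and 10 lower calls, 32 and 6 were kept without each array in turn, and 37 and 4 with normexp. With the replicate block, 43 members were higher and 31 of those at both doses, and 8 of those at both doses were lower; the arrays share only a number. Masking low-signal areas over all spots took out 23702 spots of ZnO 16 replicate 1 and 26248 of ZnO 16 replicate 4 but none of ZnO 4 replicate 4, and ended the calls of Zfp622 (adjusted p = 0.0501) and Zscan10 (adjusted p = 0.0596). Masking by bright probes, chosen after seeing the data, changed no named call. Raising signals to the floor ended the calls of Zfp213, Zfp217, Zfp74, Zscan10, Mynn and Yy1.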
